A study of Bos taurus with 3 samples.

Results

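Small leucine-rich proteoglycans were followed through the rumen wall of newborn calves at the resolution of single cells. The group comprised 8 genes of 27270 in the count matrices: DCN, BGN, ASPN, LUM, FMOD, PRELP, OGN and TSKU. They were taken by gene symbol, each symbol matched 1 row, and all 8 were found in the RefSeq gene table of the ARS-UCD2.0 assembly. The genes were chosen by their measured levels per cell class in these same cells, so levels by class are given as a description without a test. Tissue came from the ventral rumen sac of 3 newborn Holstein calves 1 day after birth, without a treatment, and the outer muscle was stripped away before enzymatic dissociation. Each calf gave 1 droplet library of 3' transcript ends, and the calf was the replicate. Adult libraries were not analysed here.

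Small leucine-rich proteoglycans are secreted proteins built from a curved stack of leucine-rich repeats. Most of them bind collagen fibrils and set the diameter and spacing of the fibrils, and several hold growth factors such as TGF-beta in the matrix. Fibroblasts are their best known source, and in the rumen wall fibroblasts lie under a stratified, keratinizing epithelium. DCN (decorin), BGN (biglycan) and ASPN (asporin) form one subfamily, in which decorin and biglycan carry chondroitin or dermatan sulfate chains and asporin carries none. LUM (lumican), FMOD (fibromodulin) and PRELP form another, OGN (osteoglycin, or mimecan) belongs to a further one, and TSKU (tsukushi) is a more distant relative known as a secreted inhibitor of BMP and Wnt signals. In the RefSeq gene order DCN lies next to LUM, OGN and ASPN lie on either side of OMD, and FMOD lies next to PRELP.

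After barcodes outside 500 to 4000 detected genes and doublets had been removed, 4545, 9642 and 9481 cells were kept from calves 1, 2 and 3, with medians of 10522, 6689 and 7637 unique molecular identifiers (UMIs) per barcode before doublet removal. Of these cells, 20737 were epithelial-like, 417 fibroblast-like, 307 mural-like, 1306 endothelial-like and 795 immune-like, by markers fixed for each type. Fibroblast-like cells comprised a cluster of 282 cells led by PENK and CXCL14, with PAM among its leading genes, and a cluster of 135 cells led by MFAP5. These carry the markers that the study uses for PAM+ and MFAP5+ fibroblasts. Mural-like cells comprised a cluster of 195 cells led by RGS5 and a cluster of 112 cells led by MYH11. A further stromal cluster of 39 cells led by TGM2 and CLDN11 was left without a name, and 66 cells in which epithelial and stromal genes were mixed were set aside. Calf 1 gave only 13 fibroblast-like and 4 mural-like cells, so its stromal values rest on few cells. Fibroblast-like cells were shallow, with a median of 1840 UMIs against 7730 in epithelial-like cells. Pairs of libraries shared 21 to 37 barcode sequences, none with identical counts.

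DCN was high in both fibroblast clusters and was also found in epithelial-like cells. Its level, given for a class of cells of a calf as UMIs of the gene per 10000 UMIs of all genes, was 73.3, 107 and 89.4 in fibroblast-like cells of calves 1, 2 and 3, with a mean of 90.0 ± 17.1 (SD, n = 3 calves). In the PENK cluster it was 87.0, 114 and 80.5, and in the MFAP5 cluster 56.9, 96.5 and 102, so the 2 fibroblast clusters overlapped in range. In the RGS5 mural cluster of calves 2 and 3 the level was 2.06 and 4.82, and in the MYH11 mural cluster 1.20 and 1.25. Mural-like cells were thus far below fibroblast-like cells in both calves, and no DCN UMI was seen in the 4 mural-like cells of calf 1, which allows a level of up to 3.08. The unnamed stromal cluster held 65.8, 34.4 and 23.8. In epithelial-like cells the level was 3.94, 3.68 and 2.53, a mean of 3.38 ± 0.754, well under the fibroblast level in each calf. Epithelial-like cells were 87.6% of all cells kept and deeper, with a median of 7730 UMIs against 1840 in fibroblast-like cells. They therefore carried 87.3% ± 9.93 of the DCN UMIs of a calf, against 10.9% ± 8.89 in fibroblast-like cells.

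**Figure D1:**
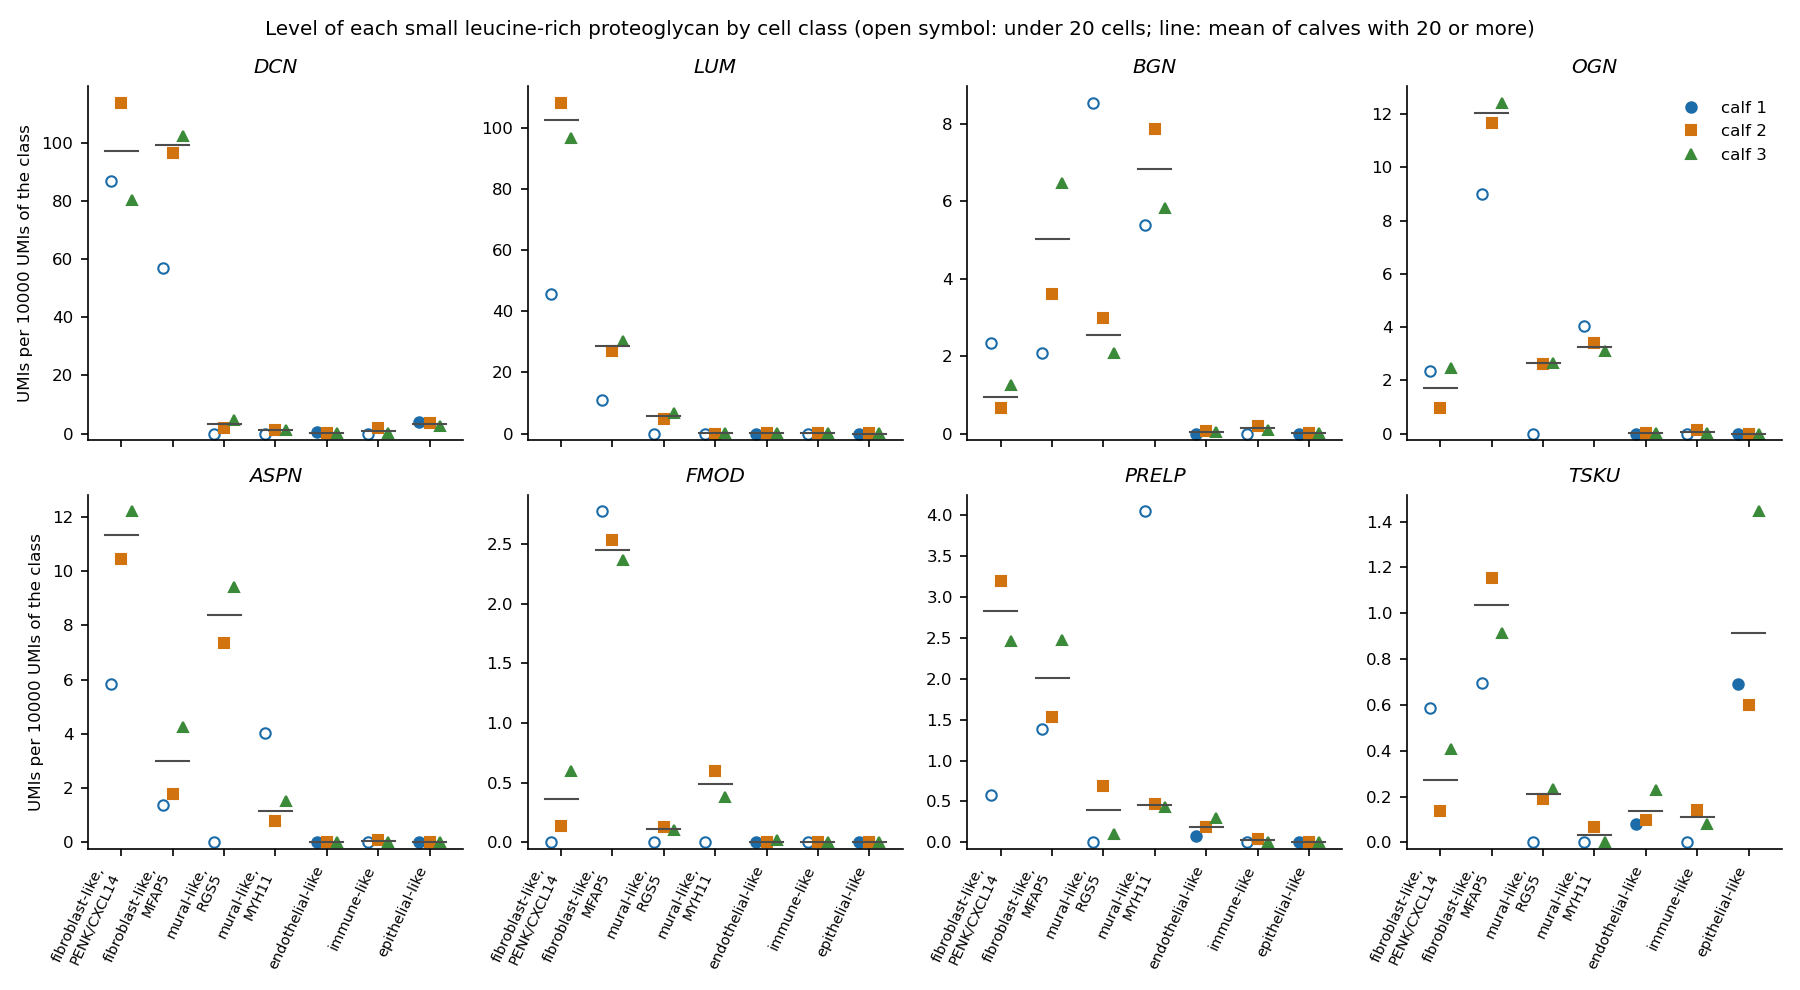
Level of each of the 8 genes (UMIs per 10000 UMIs of the class) in 7 cell classes, 1 symbol per calf, open where the calf gave under 20 cells of the class, with a line at the mean of calves with at least 20 cells. DCN and LUM stand highest in the fibroblast clusters, BGN by its mean line in the MYH11 mural cluster, and TSKU is the only gene of the group whose epithelial level reaches its fibroblast levels.

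The relatives of decorin followed different stromal cells. ASPN, a collagen-binding inhibitor of TGF-beta, was highest in the PENK cluster, at 5.84, 10.5 and 12.2 UMIs per 10000 (mean 9.50 ± 3.29), against 1.39, 1.77 and 4.25 in the MFAP5 cluster. It was also present in the RGS5 mural cluster of calves 2 and 3, at 7.36 and 9.43, where 62.8% and 70.5% of cells thinned to 2000 UMIs had an ASPN UMI. In the MYH11 mural cluster of the same calves it was at 0.799 and 1.52. The PENK and RGS5 clusters therefore lay above the MFAP5 and MYH11 clusters in both calves with more than a few stromal cells. BGN, which binds collagen and can also signal through innate immune receptors, was highest in the MYH11 mural cluster, at 5.39, 7.86 and 5.82 (mean 6.36 ± 1.32). In the MFAP5 cluster BGN was 2.08, 3.61 and 6.46, overlapping the MYH11 cluster, and in the PENK cluster 2.34, 0.648 and 1.27, below it. In the RGS5 mural cluster of calves 2 and 3 it was 2.99 and 2.09, below the MYH11 cluster of the same calf. In calf 1 the single RGS5 cell was at 8.55, above the 3 MYH11 cells, too few to order. Mural-like cells carried 43.4% ± 13.7 of all BGN UMIs of a calf and fibroblast-like cells 31.6% ± 8.77, shares that overlap within the SD. For ASPN the shares were 28.8% ± 12.6 and 57.8% ± 4.91.

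LUM, a keratan sulfate proteoglycan that binds collagen fibrils, was high in the PENK cluster. Its level there was 45.6, 108 and 96.6 UMIs per 10000, against 11.1, 26.9 and 30.4 in the MFAP5 cluster, and in each calf the PENK cluster was above the MFAP5 cluster. The RGS5 mural cluster of calves 2 and 3 held 4.80 and 6.61, while a single LUM UMI was counted in the whole MYH11 mural cluster. FMOD, which competes with lumican for collagen binding, showed the other order. It was 2.78, 2.53 and 2.37 in the MFAP5 cluster (mean 2.56 ± 0.204) and 0, 0.139 and 0.595 in the PENK cluster, without overlap. FMOD was a low gene, with 183 UMIs in all kept cells. PRELP, which links basement membranes to the underlying matrix, was 0.584, 3.19 and 2.46 in the PENK cluster and 1.39, 1.54 and 2.48 in the MFAP5 cluster, with overlapping ranges. It was the only member with a sizeable endothelial part, as 29.5% ± 9.41 of its UMIs lay in endothelial-like cells, at levels of 0.0822, 0.183 and 0.297. The unnamed stromal cluster held FMOD at 3.65, 1.98 and 2.81 and PRELP at 3.65, 4.12 and 3.51, in or above the range of the fibroblast clusters, from 39 cells.

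OGN, a small proteoglycan of collagen-rich tissue and of the vessel wall, was high in the MFAP5 cluster and present in mural cells. It was 9.02, 11.7 and 12.4 UMIs per 10000 in the MFAP5 cluster (mean 11.0 ± 1.80), 2.34, 0.972 and 2.46 in the PENK cluster, and 4.05, 3.40 and 3.10 in the MYH11 mural cluster. The MFAP5 cluster was above the other 2 in every calf, in calf 1 from only 5, 8 and 3 cells of the MFAP5, PENK and MYH11 clusters. After thinning, 66.7%, 96.3% and 77.1% of MFAP5 cluster cells had an OGN UMI, against 40%, 14.8% and 31.5% of PENK cluster cells.

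TSKU was the only member whose level in epithelial-like cells reached that in fibroblast-like cells. In epithelial-like cells its level was 0.690, 0.602 and 1.44 UMIs per 10000 (mean 0.912 ± 0.463), and in fibroblast-like cells it was 0.634, 0.520 and 0.616 (mean 0.590 ± 0.0615). The epithelial value was the higher one in all 3 calves, by far the most in calf 3, and the 2 means differed by less than the SD between calves. Within the fibroblasts TSKU was 0.694, 1.15 and 0.916 in the MFAP5 cluster and 0.584, 0.139 and 0.409 in the PENK cluster. The MFAP5 cluster was the higher one in calves 2 and 3 and was above the epithelial level in calf 2. Fibroblast-like cells of calf 1 held 2 TSKU UMIs in all, too few to order the clusters or to set them against the epithelial level. Epithelial-like cells held 98.8% ± 0.924 of TSKU UMIs. After thinning, 13.5%, 12.3% and 25.5% of epithelial-like cells had a TSKU UMI, against 0%, 1.82% and 5.51% of endothelial-like cells. Without thinning, the means over calves were 49.2% and 5.70%.

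The split of the members between the fibroblast clusters was then tested without using the clusters, by parting fibroblast-like cells of a calf by whether MFAP5, a microfibril protein, was detected among 2000 UMIs. LUM and ASPN were lower and BGN and OGN higher in MFAP5-positive fibroblasts, whereas DCN and PRELP were not called. Calves 2 and 3 entered, with 25 and 40 positive and 29 and 62 negative cells, and calf 1 did not, having 3 positive cells. Summed UMIs of the arms were compared in edgeR (quasi-likelihood test, each calf a block, Benjamini-Hochberg adjustment over 953 genes). Of the 7 members tested, 2 rose and 2 fell, where 3.78% of all genes tested rose and 5.35% fell. TSKU had too few UMIs to be tested. As the members were proposed with the levels of both clusters known, this is the same pattern seen with another gate and not separate evidence.

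LUM was 27.8 and 33.3 UMIs per 10000 in MFAP5-positive cells of calves 2 and 3 and 101 and 93.0 in MFAP5-negative cells, without overlap. Its log2 difference was −1.70 (SE 0.23, edgeR adjusted p = 0.0202), and it was called under every alternative tried for this comparison. ASPN was 2.20 and 5.13 against 7.61 and 11.6, again without overlap, with a log2 difference of −1.46 (SE 0.29, edgeR adjusted p = 0.0450). OGN was 12.6 and 10.5 against 2.25 and 3.88, with the positive arms higher, a log2 difference of 1.83 (SE 0.37, edgeR adjusted p = 0.0443). BGN was 4.81 and 7.26 against 1.56 and 1.62, a log2 difference of 1.90 (SE 0.32, edgeR adjusted p = 0.0314). FMOD was 2.40 and 2.63 against 0.173 and 0.566, a log2 difference of 2.50 (SE 0.53) that did not pass the threshold (edgeR adjusted p = 0.0504). DCN was 106 and 90.7 against 101 and 97.7, with overlapping arms and a log2 difference of −0.06 (SE 0.23, edgeR adjusted p = 0.914). PRELP was 2.40 and 2.50 against 3.11 and 2.51, a log2 difference of −0.20 (SE 0.34, edgeR adjusted p = 0.753). With DESeq2, BGN (adjusted p = 0.107) and ASPN (0.170) were not called. Without the replicate block BGN (adjusted p = 0.0586), OGN (0.0680) and ASPN (0.184) were not called either.

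Contractile stromal cells were compared with other stromal cells through ACTA2, the smooth muscle actin of mural cells and myofibroblasts. Stromal cells with at least 3 ACTA2 UMIs among 2000 had less DCN, LUM, ASPN, OGN and PRELP than stromal cells with none, while BGN was not called. The arms held 70 and 76 ACTA2-high and 65 and 134 ACTA2-negative cells in calves 2 and 3. Of the 7 members tested among 2277 genes, 5 fell, where 11.9% of all genes tested fell, and none rose, where 11.0% of all genes tested rose. At an unadjusted p under 0.05, 775 genes differed. The members were chosen with the fibroblast and mural levels known. This is therefore the same pattern seen through another gate and not separate evidence.

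DCN was 7.63 and 3.51 UMIs per 10000 in ACTA2-high cells of calves 2 and 3 and 84.3 and 73.7 in ACTA2-negative cells. The arms were far apart, with a log2 difference of −3.93 (SE 0.22, edgeR adjusted p = 7.49e-07). LUM was 6.98 and 2.71 against 54.9 and 55.1, a log2 difference of −3.62 (SE 0.27, edgeR adjusted p = 5.34e-06). ASPN was 2.30 and 4.04 against 6.49 and 10.1, a log2 difference of −1.43 (SE 0.18, edgeR adjusted p = 0.000259). These 3 genes were lower in both calves, without overlap of the arms. OGN was 2.88 and 3.57 against 6.26 and 5.51, a log2 difference of −0.89 (SE 0.20, edgeR adjusted p = 0.00928). PRELP was 1.08 and 0.529 against 2.47 and 1.91, a log2 difference of −1.52 (SE 0.33, edgeR adjusted p = 0.00763). BGN went the other way in both calves, at 4.75 and 4.17 against 2.86 and 3.22, but the log2 difference of 0.49 (SE 0.20) did not pass the threshold (edgeR adjusted p = 0.116). FMOD had a log2 difference of −0.75 (SE 0.46, edgeR adjusted p = 0.297), and TSKU was not tested. OGN and PRELP were not called with DESeq2 (adjusted p = 0.306 and 0.270) or without the replicate block (0.0912 and 0.0943), and ASPN was not called without the block (0.0523). BGN was called as higher when cells were not thinned (adjusted p = 0.0022).

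**Figure D2:**
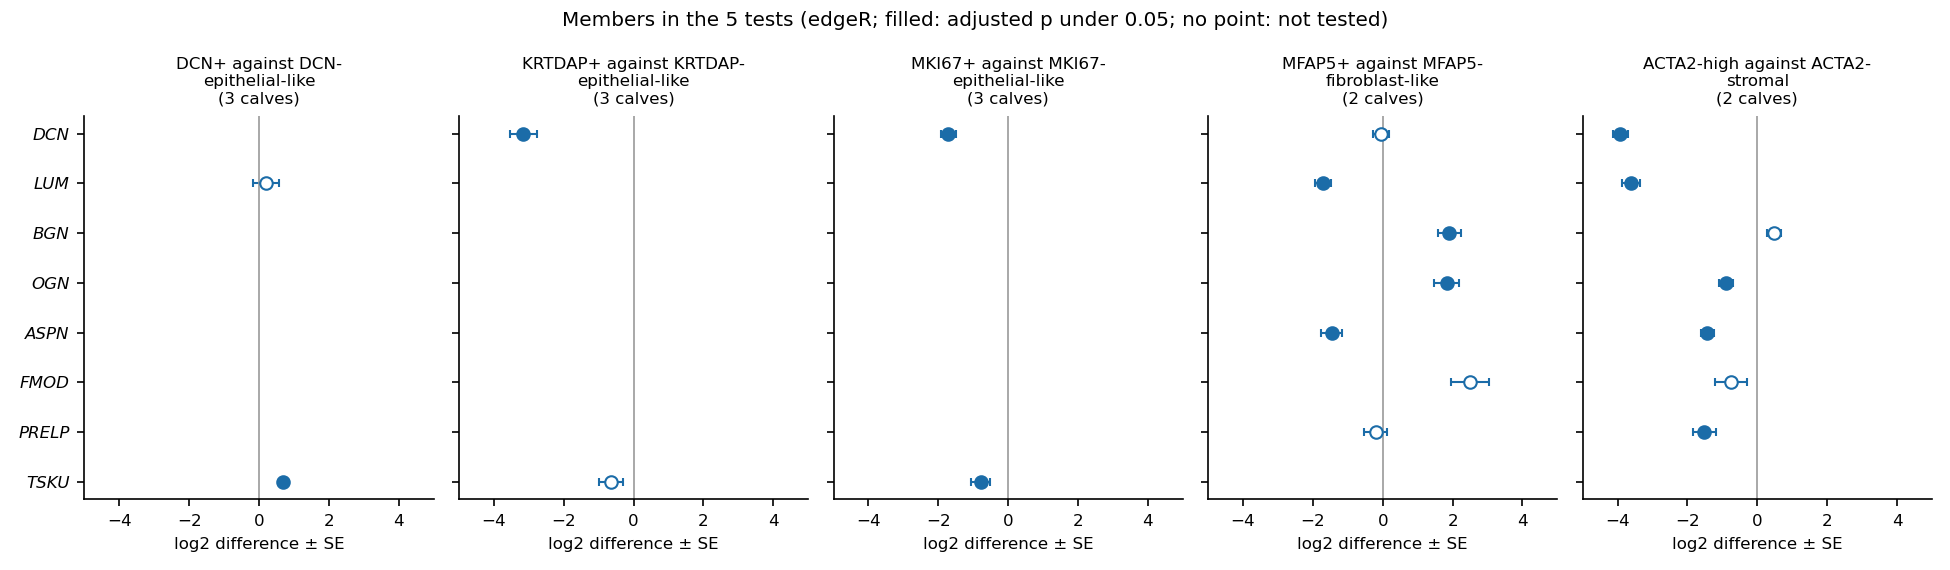
Log2 difference of each member between the arms of 5 tests (horizontal axis, bars show ± SE), with filled symbols at an edgeR adjusted p under 0.05 and no symbol where a member was not tested. LUM and ASPN lie below 0 and BGN and OGN above 0 in the MFAP5 test, DCN and LUM lie farthest below 0 in the ACTA2 test, and DCN lies below 0 in KRTDAP-positive and MKI67-positive epithelial cells.

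The epithelial DCN signal was then set beside that of other cell classes and beside fibroblast genes. A DCN UMI was found in 42.7%, 41.9% and 32.2% of epithelial-like cells of calves 1, 2 and 3 after thinning to 2000 UMIs (95% Clopper-Pearson intervals 41.3 to 44.2, 40.8 to 43.0 and 31.1 to 33.3, which cover counting error only). Without thinning the shares were 68.9%, 63.3% and 54.3%. In endothelial-like cells, which are not known as a main source of decorin, the thinned shares were 4.41%, 3.24% and 2.84%, and the unthinned shares were 10.5%, 5.76% and 4.75%. In immune-like cells the thinned shares were 0%, 13.2% and 3.50%. The epithelial share was thus above both in every calf, beyond counting error against endothelial-like cells. Thinning set all cells to the same count. Medians before thinning were 10530.5, 6689 and 7968 UMIs in epithelial-like and 4157.5, 3605 and 4342 in endothelial-like cells. Thinning need not equalize the part of RNA carried in from other cells, which was not measured. At least 2 DCN UMIs among 2000 were found in 23.3%, 21.7% and 15.2% of epithelial-like cells, and at least 5 in 3.69%, 2.35% and 1.34%. The highest count in a thinned cell was 13, 10 and 9.

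The other fibroblast members behaved differently in the same epithelial-like cells. After thinning, the mean share with a UMI was 0.272% for LUM, 0.0210% for BGN, 0.0244% for OGN, 0.0300% for ASPN, 0.0309% for FMOD and 0.0128% for PRELP. The endothelial shares of these genes were 0.572%, 0.524%, 0.0556%, 0.179%, 0.111% and 2.80%, so LUM, BGN, OGN, ASPN and FMOD lay below the endothelial share. That share is not a depth-matched background, as endothelial-like cells were shallower before thinning. For PRELP endothelial-like cells give no background level, since they held a mean of 29.5% of its UMIs. The mean immune share of 0.0531% rests on 1 of 703 thinned cells, too few to give a background level either. Among epithelial-like cells 3 of 20317 had a PRELP UMI. Over all 3 calves, epithelial UMIs numbered 299 for LUM and 17 to 50 for each of the other 5 members here. DCN had 61404 and TSKU 17329.

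DCN was next set against COL3A1, a fibrillar collagen chain of fibroblasts, as a description. COL3A1 is among the markers that name the classes, whereas DCN is not and was left out of the clustering. A low COL3A1 level in epithelial-like cells is thus in part built in. In epithelial-like cells the ratio of DCN to COL3A1 UMIs was 564, 58.3 and 54.2 in calves 1, 2 and 3, whereas in fibroblast-like cells it was 0.396, 0.511 and 0.380. The epithelial ratio was higher in 3 of 3 calves, by 1424-fold, 114-fold and 143-fold, and the ranges did not overlap. Behind these ratios lay 35, 418 and 319 COL3A1 UMIs in epithelial-like cells, so calf 1 is the least precise. Clustering without Harmony put 70 COL3A1 UMIs into the epithelial-like cells of calf 1 and brought its fold to 666. DCN made up 99.8%, 98.3% and 98.2% of DCN and COL3A1 UMIs in epithelial-like cells (95% Clopper-Pearson intervals 99.8 to 99.9, 98.1 to 98.5 and 98.0 to 98.4) and 28.4%, 33.8% and 27.5% in fibroblast-like cells (25.3 to 31.6, 33.0 to 34.7 and 26.8 to 28.3). The mean log2 difference of the ratio was 8.15 ± 2.02 (SD, n = 3 calves). A two-sided exact permutation test by sign flips within calves gave p = 0.25, the smallest p that 3 calves allow. With COL1A1, COL1A2 or LUM in place of COL3A1 the log2 difference was 8.55, 8.22 and 8.29. Ratios to the other fibroblast markers were not calculated, and not all were as low against fibroblast-like cells. Mean levels in epithelial-like and fibroblast-like cells were 0.180 and 76.2 for SPARC and 0.0790 and 24.0 for FBLN1. For COL14A1 they were 0.306 and 2.59, nearer to each other than the 3.38 and 90.0 of DCN. The ratio of DCN to COL14A1 was thus not higher in epithelial-like cells.

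At the fibroblast ratio, the epithelial COL3A1 level corresponds to 0.00277, 0.0323 and 0.0177 DCN UMIs per 10000. These are 0.0702%, 0.877% and 0.701% of the DCN level measured in epithelial-like cells. The source of the epithelial DCN RNA was not tested. The same calculation for LUM gave another picture. Its ratio to COL3A1 was 0.0857, 0.433 and 0.361 in epithelial-like cells and 0.161, 0.370 and 0.296 in fibroblast-like cells, overlapping, with a log2 difference of −0.13 ± 0.68 (two-sided exact permutation p = 1.0). For TSKU the ratio was 98.7, 9.53 and 31.0 against 0.00343, 0.00248 and 0.00262, a log2 difference of 13.42 ± 1.45 with the epithelial ratio higher in every calf. BGN, from 4, 17 and 29 epithelial UMIs, had epithelial ratios 9.52-fold, 4.85-fold and 6.31-fold above those of fibroblast-like cells. FMOD, from 5, 3 and 24 epithelial UMIs, was 20.8-fold, 1.45-fold and 13.4-fold above (log2 difference 2.89 ± 2.06), and PRELP, from 2, 7 and 8, was 11.1-fold, 1.37-fold and 2.39-fold above (1.73 ± 1.56). OGN had a log2 difference of 0.28 ± 0.65 from 20 UMIs, and ASPN of −0.16 ± 0.51 in calves 2 and 3. BGN, FMOD and PRELP were thus above the fibroblast ratio in all 3 calves, on few UMIs (two-sided exact permutation p = 0.25 for each, the smallest possible). The summed level of the 11 fibroblast markers was 0.682 to 0.846 in epithelial-like and 528 to 667 in fibroblast-like cells. None of the 11 was at 0 in epithelial-like cells. The largest epithelial parts were COL14A1 (mean 0.306, 5541 UMIs), SPARC (0.180) and COL5A1 (0.130), above COL3A1 at 0.0389, while PDGFRA had 35 epithelial UMIs in all.

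**Figure D3:**
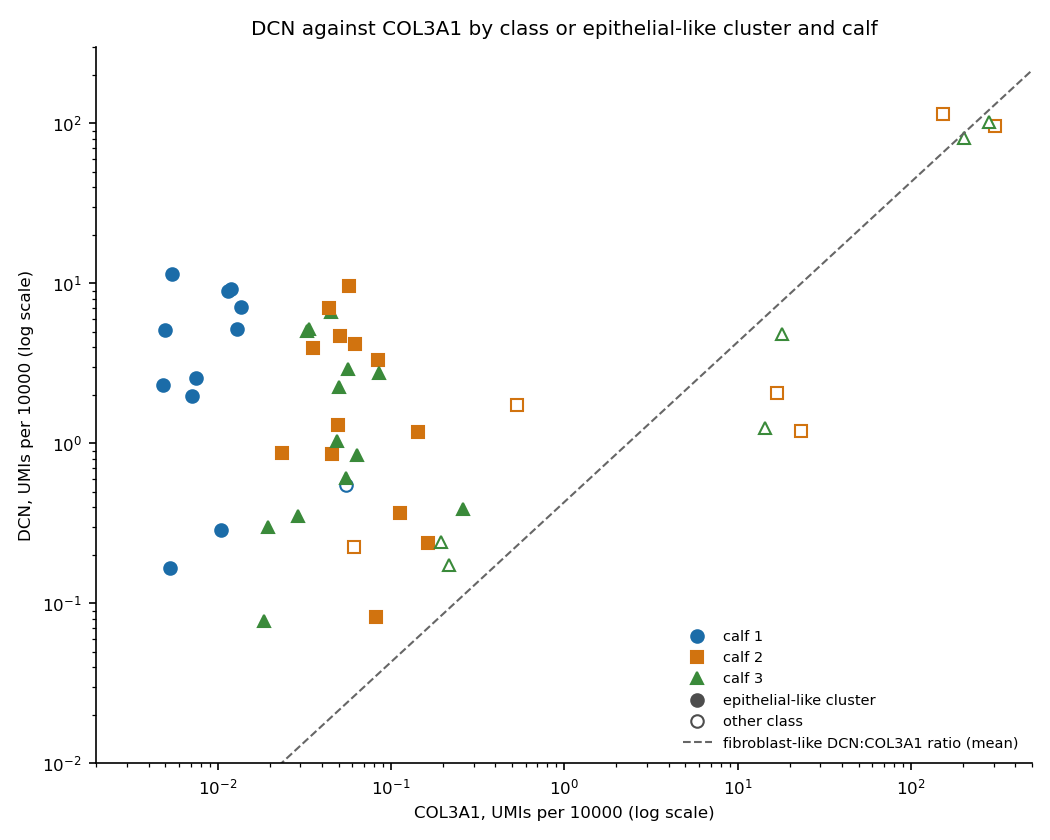
DCN against COL3A1 level (UMIs per 10000, both axes logarithmic), with filled symbols for epithelial-like clusters and open symbols for other classes of at least 20 cells in a calf, 1 symbol shape per calf, and a dashed line at the mean DCN to COL3A1 ratio of fibroblast-like cells. Fibroblast points lie near the line and epithelial points lie above it, and clusters 6 and 12 of calf 1 are not drawn because their COL3A1 count was 0.

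Within the epithelium DCN varied widely between 13 clusters. It was highest in cluster 0, led by RGS4 and PLAC8 (3096 cells), at 11.4, 9.59 and 6.66 UMIs per 10000, and next in cluster 4 with the same leading genes (1978 cells), at 8.96, 7.02 and 5.17. In cluster 0, 84.6%, 76.7% and 66.7% of thinned cells had a DCN UMI. Clusters 11 (TNFRSF6B and PHLDA1), 2 (CXCL3 and GRO1), 8 (led by mitochondrial genes) and 1 (PPM1N and WNT11) followed with means of 6.29 ± 2.52, 4.74 ± 2.17, 3.76 ± 1.28 and 3.76 ± 1.43. Ranges over calves overlapped, but within each calf cluster 11 was above cluster 2, and cluster 2 above clusters 8 and 1. Clusters 8 and 1 changed order between calves. The mitotic-like cluster 7 and the S-phase cluster 5 were lower, with means of 1.53 ± 0.910 and 1.40 ± 0.792, as was the granule-like cluster 6, with a mean of 1.02 ± 0.752.

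The lowest mean DCN levels were found in clusters 9 and 10. Cluster 9, spinous-like and led by SPINK5 and KRTDAP, held 0.286, 0.366 and 0.301, and cluster 10, led by FABP4, held 0.165, 0.240 and 0.0777. Only 4.02%, 3.74% and 2.92% of thinned cells of cluster 9 and 4.10%, 3.34% and 1.94% of cluster 10 had a DCN UMI, in the range of endothelial-like cells. The DCN to COL3A1 ratio was 27.3, 3.24 and 15.3 in cluster 9 and 31.0, 1.46 and 4.20 in cluster 10, against 2087, 168 and 148 in cluster 0, and in clusters 9 and 10 of calf 1 it rests on 3 and 1 COL3A1 UMIs. In cluster 12, with 159 shallow cells, the level was 4.37 in calf 1 and 0.0819 and 0.391 in the others, so its mean rests on calf 1.

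TSKU followed the same clusters in its own range. It was 1.12, 1.10 and 2.46 UMIs per 10000 in cluster 0 and 1.17, 1.04 and 2.62 in cluster 4, and it was lowest in cluster 10, at 0.379, 0.207 and 0.418. In each calf both of the former were above the latter. Across the 13 clusters Pearson's r between DCN and TSKU was 0.812, 0.755 and 0.936 in calves 1, 2 and 3 (Spearman's rho 0.835, 0.780 and 0.846). Between DCN and COL3A1 r was 0.216, −0.484 and −0.049 (rho 0.451, −0.385 and 0.236). Between LUM and COL3A1 it was −0.183, 0.772 and 0.959 (rho −0.394, 0.824 and 0.698). Clusters of a calf share a library and differ in depth, so these values are descriptions. DCN and COL3A1 showed no steady link across the epithelium, whereas LUM and COL3A1 rose together in calves 2 and 3, which held nearly all epithelial LUM UMIs. Low counts could hide a link, as COL3A1 had 0 to 6 UMIs a cluster in calf 1. Most COL3A1 levels also lay under the 0.1 added before taking logs. In calf 3 the highest COL3A1 level, 0.260 in cluster 12, came from 2 UMIs. SPARC, a collagen-binding matrix glycoprotein that is also on the fibroblast marker list, did go with DCN. Their r was 0.911, 0.321 and 0.790 (rho 0.951, 0.379 and 0.819), so the fibroblast genes did not behave alike.

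**Figure D4:**
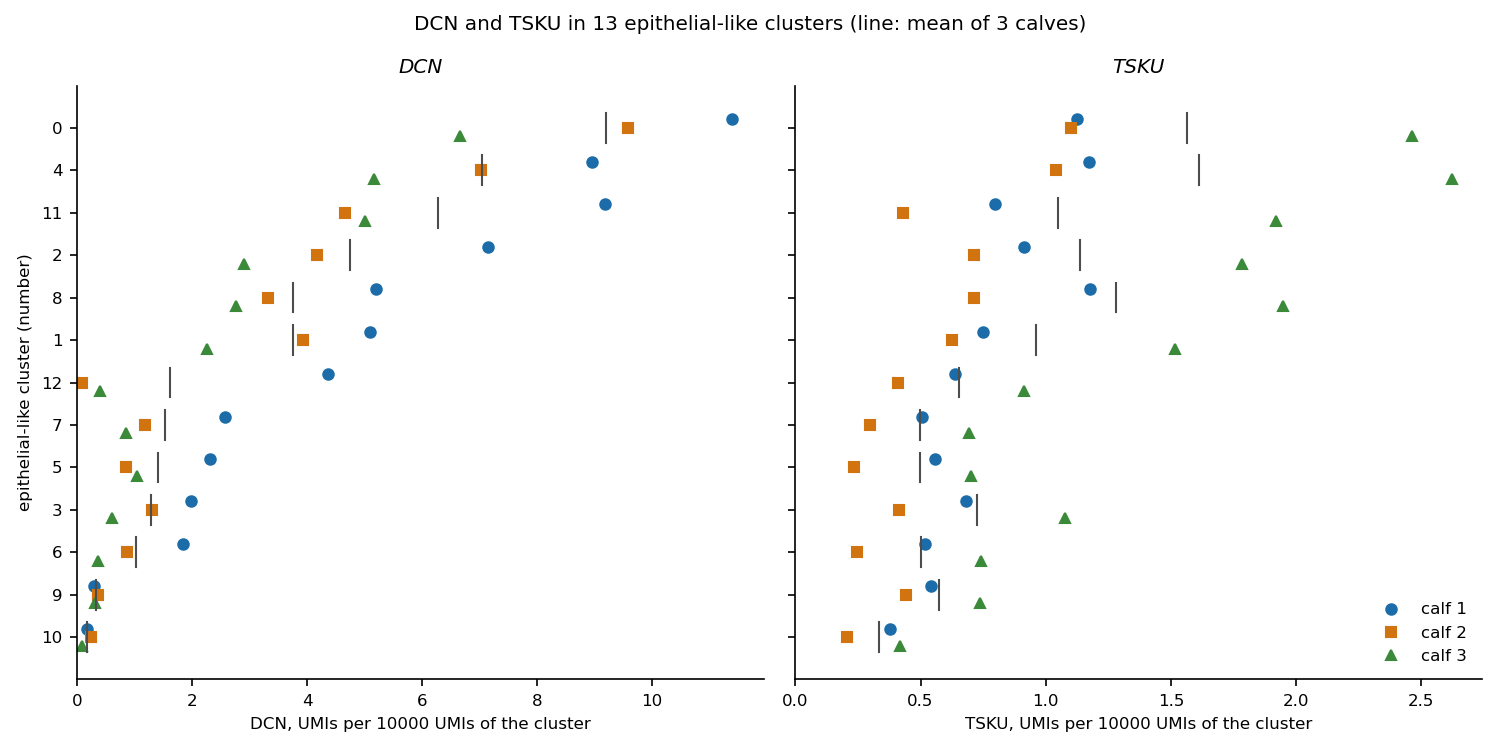
DCN and TSKU levels (UMIs per 10000) in the 13 epithelial-like clusters, 1 symbol per calf, with a line at the mean of the 3 calves. Both genes are highest in clusters 0 and 4, and clusters 9 and 10 hold the lowest mean DCN levels, under 0.4 in every calf.

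Epithelial-like cells with a DCN UMI among 2000 were next compared with those without, to see which genes moved with DCN. The levels of DCN and TSKU by cluster and the genes that lead the clusters were already known. The result is therefore the same pattern seen through another gate and not separate evidence. TSKU and SPARC were higher in DCN-positive cells, as was RGS4, while SPINK5 and A2ML1 were lower, and COL3A1 and LUM were not called. The arms held 1853, 3537 and 2427 positive and 2482, 4904 and 5114 negative cells in calves 1, 2 and 3, with medians before thinning of 9474, 6236 and 7304 UMIs in the positive and 11816, 7230 and 8471 in the negative arm. Of 10164 genes tested, 1020 were higher and 1136 lower by the same edgeR test, again blocked by calf. Apart from DCN itself, 2 members had enough UMIs to be tested, of which 1 rose and none fell, where 10.0% of all genes rose and 11.2% fell.

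TSKU was 0.879, 0.899 and 2.25 UMIs per 10000 in DCN-positive and 0.646, 0.514 and 1.30 in DCN-negative cells, higher in 3 of 3 calves. The log2 difference was 0.69 (SE 0.08, edgeR adjusted p = 2.59e-05). LUM had 0, 25 and 7 UMIs in the positive arm and 1, 24 and 18 in the negative arm, with a log2 difference of 0.21 (SE 0.37, edgeR adjusted p = 0.749). COL3A1 was 0.0136, 0.0668 and 0.0684 against 0.00812, 0.0554 and 0.0521, a log2 difference of 0.34 (SE 0.21, edgeR adjusted p = 0.299), from 5, 47 and 33 against 4, 54 and 53 UMIs. The share of cells with a COL3A1 UMI was 0.270%, 1.07% and 1.28% in DCN-positive and 0.161%, 1.04% and 0.997% in DCN-negative cells, within counting error of each other in each calf. COL1A1 (log2 difference 0.30, SE 0.34, edgeR adjusted p = 0.601) and COL1A2 (0.19, SE 0.34, adjusted p = 0.743) were likewise not called, and COL6A3 was not tested. When cells were clustered without Harmony, which put 4339, 8449 and 7556 thinned cells into the epithelial-like class in place of 4335, 8441 and 7541, COL3A1 (log2 difference 0.67, edgeR adjusted p = 0.0457) and COL1A1 (0.98, adjusted p = 0.0283) were called as higher. SPARC, also on the fibroblast marker list, was 0.403, 0.169 and 0.549 against 0.0954, 0.0697 and 0.180. Its log2 difference was 1.62 (SE 0.13, edgeR adjusted p = 5.98e-07). The fibroblast marker COL5A1 was called as higher too, as given below, so fibroblast markers did not move alike. Calves differed widely in level, and with no replicate block TSKU had an adjusted p of 0.9994.

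The genes with the largest differences gave the DCN-positive cells a profile. VCAN, a large proteoglycan, had a log2 difference of 2.63 (SE 0.36, edgeR adjusted p = 0.000114), and CRISPLD1, SCARA5, MYCN, SEMA6A, PKDCC, RGS4 and SPON2 followed at 1.85 to 2.26. RGS4, a regulator of G protein signalling that led the clusters highest in DCN, was at a log2 difference of 2.01 (SE 0.10, edgeR adjusted p = 3.46e-09). On the other side stood SLC9A2, a sodium-proton exchanger, at −5.28 (SE 0.68, edgeR adjusted p = 6.07e-05) from 80 UMIs. A2ML1, a protease inhibitor of the upper epidermis, was at −4.75 (SE 0.28, edgeR adjusted p = 2.17e-08) from 1222 UMIs. RBP2, ARG1, SPINK5, PHGR1 and ENSBTAG00000046944 lay between −3.89 and −3.74. SPINK5, which restrains the proteases that shed the outer cell layers, was at −3.80 (SE 0.17, edgeR adjusted p = 1.53e-09). These genes moved the same way in all 3 calves, as the rule that named them asks.

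Differentiating and dividing epithelial cells were compared with the rest by KRTDAP, a secreted marker of keratinocyte differentiation, and by MKI67, a marker of cycling cells. DCN fell in both. The members and gates were chosen with earlier results of these data known. Low DCN had also been seen in the spinous-like cluster led by SPINK5 and KRTDAP and in the mitotic-like cluster. Both falls are therefore the same pattern seen through other gates and not separate evidence. KRTDAP-positive cells, with at least 2 UMIs among 2000, numbered 174, 248 and 10 in calves 1, 2 and 3, against 4003, 7937 and 7517 cells with none. Before thinning their medians were 15481.5, 13317.5 and 13163 UMIs against 10520, 6708 and 8016. DCN was 0.607, 0.486 and 0 UMIs per 10000 in positive and 4.88, 4.39 and 2.98 in negative cells, lower in 3 of 3 calves without overlap. The log2 difference was −3.15 (SE 0.40, edgeR adjusted p = 1.40e-13). The positive arm held 21, 24 and 0 DCN UMIs, the 0 of calf 3 allowing a level of up to 1.51, and the log2 difference ranged from −3.44 to −3.02 as each calf was left out in turn. Of the 2 members tested 1 fell and none rose, where 7.35% of 9401 genes tested fell and 6.02% rose. The median log2 difference of all genes was −0.20, and −0.31 under RLE scaling, far nearer to 0 than that of DCN.

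TSKU was 0.492, 0.507 and 0.503 in KRTDAP-positive and 0.761, 0.690 and 1.60 in KRTDAP-negative cells. It was lower in calves 1 and 2, whereas the positive value of calf 3 came from 1 UMI, too few to order the arms. The log2 difference of −0.65 (SE 0.35) did not pass the threshold (edgeR adjusted p = 0.226), while it did without thinning (adjusted p = 0.0037). COL3A1 went against DCN, with a log2 difference of 2.22 (SE 0.62, edgeR adjusted p = 0.00516). That call rests on calf 2, whose positive cells held 14 COL3A1 UMIs, and without calf 2 the log2 difference was 0.90 (adjusted p = 0.987).

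MKI67-positive cells, with at least 2 UMIs among 2000, numbered 95, 48 and 89, against 4024, 8319 and 7288 cells with none. DCN was 2.98, 1.37 and 0.738 UMIs per 10000 in positive and 4.80, 4.27 and 3.03 in negative cells, lower in each calf, with a log2 difference of −1.71 (SE 0.22, edgeR adjusted p = 8.90e-13). The highest positive value lay just under the lowest negative one. TSKU was 0.850, 0.210 and 1.08 against 0.743, 0.680 and 1.63, lower in 2 of 3 calves, with a log2 difference of −0.79 (SE 0.28, edgeR adjusted p = 0.0453). The positive value of calf 2 came from 2 UMIs. The TSKU call was lost without calf 2 (adjusted p = 0.290), without calf 3 (0.491), with DESeq2 (0.382) and without the replicate block (0.438). Both members tested fell, where 5.73% of 9526 genes tested fell and 3.76% rose.

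Other genes of the same matrix were read from lists. Of 10 further small leucine-rich proteoglycans, PODN and ECM2 reached 1 UMI per 10000 in fibroblast-like cells, PODN at 2.35 ± 1.42 in the MFAP5 cluster and ECM2 at 3.22 ± 1.41 in the RGS5 mural cluster. None of the 10 reached it in epithelial-like cells. Of 10 collagens that bind the members, 7 reached this level in fibroblast-like, 4 in mural-like and none in epithelial-like cells. Of 8 proteases that cut or free small proteoglycans, 4 did so in fibroblast-like cells, led by MMP2, a gelatinase, at 17.1 ± 0.838. Of 25 enzymes that build glycosaminoglycan chains, none did so in fibroblast-like cells as a whole, B4GALT4, a galactosyltransferase, did at 1.19 in the PENK cluster, and CSGALNACT1, which starts chondroitin chains, was at 3.26 in the MYH11 mural cluster. The TGF-beta receptors TGFBR2 and TGFBR3 were at 2.72 and 2.70 in fibroblast-like cells. None of 6 cell surface receptors of decorin and biglycan reached the level in fibroblast-like or mural-like cells, and KDR was at 4.45 in endothelial-like cells. Among 14 other proteoglycans, VCAN, SDC2 and HAPLN1 did in fibroblast-like cells, at 3.90, 1.28 and 1.19.

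The same lists were counted in the tests. In ACTA2-high stromal cells 6 of 8 tested collagens fell (COL1A1, COL1A2, COL3A1, COL5A1, COL6A2 and COL14A1) and none rose, with a list median of −2.57 against 0.00 for all genes, and MMP2, MMP14, TGFBR2, TGFBR3 and VCAN fell too. In MFAP5-positive fibroblasts COL1A2 (log2 difference 1.94) and COL14A1 (2.69) rose among 9 tested, none fell, and MMP14 fell by 1.90. In DCN-positive epithelial cells 3 of 8 tested collagens rose: COL5A1 (0.72, SE 0.14), COL6A2 (1.80, SE 0.38) and COL12A1 (1.34, SE 0.24), all at means under 0.3 UMIs per 10000. TGFB2 (0.92), TGFBR3 (1.15), ADAMTS1 (0.78), EGFR (0.57), a receptor that decorin can bind, and SDC2 (0.62) also rose there and SDC1 fell by 0.42, while none of 15 tested chain enzymes was called. In KRTDAP-positive cells TGFB1, TGFBR2, TGFBR3, COL5A1, COL14A1, MMP14 and SDC2 fell and SDC1, B4GALT4, CHST1 and, as above, COL3A1 rose. In MKI67-positive cells no gene of these lists was called by edgeR.

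The genes most like each member were sought by Pearson's r of log levels over 18 pairs of class and calf, among 11462 genes. The pairs share libraries, so r is a description. DCN was most like LRP1 (r = 0.943), LAMB1 and FBLN1, LUM most like C1S (0.964), PLOD2 and FBLN1, and ASPN most like TWIST1 (0.977), NR2F1 and TCF21. BGN was most like OGN (0.946), and OGN most like OLFML1 (0.963), COL1A2 and HSPB6. PRELP was most like MXRA8 (0.949), and TSKU most like LTBP2 (0.900), EPHB3 and MST1R. FMOD had too few UMIs for this step. Within the epithelium, over 39 pairs of cluster and calf centred on the calf and 10767 genes, DCN was most like BASP1 (0.937), MFAP2 (0.931), a microfibril protein, and APP (0.911). TSKU was most like CCDC190 (0.911), HIF3A (0.893) and NAALADL2 (0.874).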

How the data were processed

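The deposited values are UMI counts per gene and barcode, made by the authors with Cell Ranger 3.1.0 (submitters' notes) on ARS-UCD1.2, without normalization. Barcodes entered with 500 to 4000 genes, up to 50000 UMIs and up to 40% of UMIs from mitochondrial genes. Doublets were called by a score against simulated doublets at 0.8% per 1000 barcodes. Calves were merged with an own Harmony implementation on 2000 variable genes without the members and clustered with leidenalg 0.10.2 (30 dimensions and resolution 0.1 for all cells, 50 and 0.8 for epithelial, 20 and 0.4 for stromal cells). Clusters were named from fixed markers. Libraries held 82263092, 89803289 and 106145091 UMIs. Cells were thinned to 2000 UMIs for shares and tests, which left 164 of 417 fibroblast-like, 207 of 307 mural-like and 20317 of 20737 epithelial-like cells. Sums per calf and arm were tested with edgeR 4.0.16 in R 4.3.3 (TMM, filterByExpr, at least 5 cells per arm, adjusted p under 0.05). Arms pair because both come from the same animal. Python 3.11.15, numpy 2.4.6 and scipy 1.17.1 gave the rest, and DESeq2 1.42.0 was an alternative. The tests were checked on simulated counts. Named genes are the 8 members, 5 fibroblast genes, list members called, and the 8 called genes of largest difference in each direction in the DCN comparison that moved alike in every calf, of which 1 is not reported here. Members, lists and gates were chosen with earlier results of these data known. No sequence was printed, as no sequence table was used here.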

Additional observations from a re-analysis of the deposited data

Results flagged for a closer look

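DCN was also counted in barcodes outside the limits on detected genes, which entered no comparison. In the 1797, 1119 and 476 barcodes with under 500 genes of calves 1, 2 and 3, its level was 0.749, 0.937 and 1.68 UMIs per 10000, from 192, 185 and 107 UMIs, above the limits of 0.0117, 0.0152 and 0.0470 that a count of 0 allows. The DCN to COL3A1 ratio of these barcodes was 2.29, 1.03 and 0.279, nearer to the fibroblast ratio than to the epithelial one. In the 797, 187 and 637 barcodes with over 4000 genes the level was 2.46, 1.56 and 1.06, from 6281, 941 and 1942 UMIs, and the ratio was 628, 58.8 and 12.4.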

How the results depend on the processing

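The tests on stromal cells rest on 2 calves, with 25 to 134 cells an arm, so no leave-one-out fit was possible there, and low genes such as FMOD and TSKU were limited by depth. Every calf and alternative kept the direction of the DCN to COL3A1 ratio, with log2 differences from 7.58 to 8.36 and from 6.99 to 8.82 without 1 calf. Without the replicate block, which follows the animal, DCN-positive against DCN-negative epithelial cells gave 1 called gene in place of 2156, with 546 at an unadjusted p under 0.05, KRTDAP 843 in place of 1257, MKI67 357 in place of 904, MFAP5 47 in place of 87 and ACTA2 242 in place of 523. DESeq2 gave 898 (314 higher, 584 lower) for DCN, 618 for KRTDAP, 496 (279 higher, 217 lower) for MKI67 and 167 for ACTA2. Thinning to 1000 UMIs gave 1152 for DCN, 645 for KRTDAP and 448 for MKI67. No thinning gave 4104, 3491, 3765, 382 and 1137 for DCN, KRTDAP, MKI67, MFAP5 and ACTA2. For MFAP5, RLE gave 149, no filter on low counts 214, no doublet removal 211, no Harmony 218 and a gate of at least 2 UMIs 153. Leaving out 1 calf gave 171 to 1420 for KRTDAP and 457 to 679 for MKI67. The causes were not tested. Uncalled log2 differences changed sign as follows: LUM in the DCN comparison −0.027 with DESeq2, COL1A2 there −0.014 with DESeq2 and −0.22 to 0.33 without 1 calf, SPARC for KRTDAP 0.19 at 1000 UMIs, COL3A1 for MKI67 0.55 without thinning, and DCN for MFAP5 0.0075 with no filter, 0.27 with no doublet removal and 0.24 with no Harmony. SPARC for MKI67 was −1.77 to 1.29 without 1 calf, −0.70 with no thinning, −0.96 with no doublet removal, −0.95 with no Harmony and −0.092 with a gate of at least 1 UMI.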
